A study of Mus musculus with 4 samples.

Results

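The receptors of the tumour necrosis factor (TNF) superfamily are cell surface proteins through which TNF and its relatives signal. The 8 genes described here were Tnfrsf1a, Tnfrsf1b, Cd40, Ltbr, Fas, Tnfrsf10b, Tnfrsf14 and Tnfrsf21, a list given by name among the 24530 genes of the count tables, with 1 RefSeq transcript kept per gene, the one with the highest mean raw count. They were compared between RAW 264.7 cells stably carrying the expression plasmid pcDNA 3.1(+) with the long noncoding RNA Dnm3os and the same cells stably carrying the empty plasmid, 2 libraries in each group. RAW 264.7 is an established macrophage-like mouse line, and both groups were grown at 5.5 mmol/L glucose and taken at passages 3 to 6. The labels do not say whether the cells were clones or pools, nor whether replicate libraries stem from separate cultures, so p-values measure only the spread between these libraries, which may be technical.

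Receptors of this family bind ligands that are mostly made as trimers on the surface of other cells. Some carry a death domain in the cytoplasmic tail, which recruits adaptors such as Tradd and Fadd and can lead through caspases to cell death. Others lack it and bind TRAF adaptors directly, which leads to NF-kB and stress kinase signalling. In macrophages TNF is both a product and a stimulus, and its receptors differ in kind: Tnfrsf1a encodes the death domain receptor TNFR1, and Tnfrsf1b encodes TNFR2, which has no death domain.

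Of the 8 genes, 7 had enough counts to be tested, and Tnfrsf14 did not. In cells carrying Dnm3os, Tnfrsf1b rose about 2-fold and was the only one of the 7 tested genes to rise, while Tnfrsf1a and Tnfrsf10b fell by small amounts and Cd40, Ltbr, Fas and Tnfrsf21 did not pass the test. A gene was called when its adjusted p was under 0.05 in edgeR's two-sided quasi-likelihood test, with Benjamini-Hochberg adjustment over 13172 genes. By that rule 6.51% of all genes tested were higher and 5.75% were lower, against 1 and 2 of the 7 receptor genes. The median log2 fold change was 0.01 over the 7 receptor genes and 0.00 over all genes tested. The 2 falls were not called by DESeq2 or limma-voom, nor without empty vector library 1 or without Dnm3os library 1, so Tnfrsf1b was the receptor whose call stood in every fit that was run.

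The promoters of the TNF receptor pair are shown because these 2 genes bind the same ligand and their edgeR calls had opposite directions. The call of Tnfrsf1a was small and was lost in 5 of 12 alternative fits. The promoter sequences come from RefSeq (GRCm38.p6), from 250 bases before to 50 after the gene's start, 5′ to 3′ along the gene. RefSeq entries were matched by symbol for 6 of the 8 genes, not for Cd40 and Tnfrsf10b. That of Tnfrsf1b is at chr4:145246821-145247120 on the minus strand, and that of Tnfrsf1a at chr6:125349473-125349772 on the plus strand. Capitals mark matches, on either strand, to 6 motifs: the NF-kB (kappaB) motif, the AP-1 motif TGANTCA, the GC box GGGCGG, the PU.1 core GAGGAA, the C/EBP motif TTGCNNAA and the TATA box TATAAA.
Tnfrsf1b: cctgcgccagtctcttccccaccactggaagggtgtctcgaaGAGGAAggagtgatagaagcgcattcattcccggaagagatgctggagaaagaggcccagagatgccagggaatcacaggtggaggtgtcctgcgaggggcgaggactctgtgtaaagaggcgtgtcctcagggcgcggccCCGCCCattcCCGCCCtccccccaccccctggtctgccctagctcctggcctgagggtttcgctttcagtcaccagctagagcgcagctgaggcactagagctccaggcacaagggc
Tnfrsf1a: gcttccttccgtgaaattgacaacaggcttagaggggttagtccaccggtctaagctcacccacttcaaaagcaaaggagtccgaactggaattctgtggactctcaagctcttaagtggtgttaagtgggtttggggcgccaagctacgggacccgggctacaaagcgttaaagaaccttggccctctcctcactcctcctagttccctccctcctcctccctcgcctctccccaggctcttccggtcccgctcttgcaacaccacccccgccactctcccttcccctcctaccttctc

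The Tnfrsf1b window held 2 GC boxes, at positions -67 and -57 from the gene's start, and 1 PU.1 core, and the Tnfrsf1a window held none of the 6 motifs. Among all 32851 promoter windows, 35.7% held a GC box and 28.3% a PU.1 core, so neither match was rare. The NF-kB motif was in 8.46% of all windows, AP-1 in 7.81%, C/EBP in 10.8% and the TATA box in 13.6%. Of the other windows, Ltbr held 2 GC boxes and 1 PU.1 core, Fas held 2 GC boxes and 1 AP-1 motif, Tnfrsf21 held 1 GC box and 1 PU.1 core, and Tnfrsf14 held none of the 6. The motifs were searched singly and the matches printed here did not overlap one another. They describe letters in a window, and no binding was measured.

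Over 1 transcript per gene, the empty vector libraries held 39769640 and 35447766 counts, and those with Dnm3os 29416272 and 34314038, each pair in the order of its numbering. Dnm3os had 0 counts in both empty vector libraries and 208 and 260 in the Dnm3os libraries, which is the direction the labels give. All 7 macrophage markers looked at (Adgre1, Csf1r, Itgam, Cd68, Lyz2, Spi1 and Ptprc) were expressed, with summed levels of 8812 to 10156 CPM (counts scaled to library size), of which Lyz2 made up most. By edgeR's quasi-likelihood test with Benjamini-Hochberg adjustment, 5 of these 7 genes were called, 3 with higher and 2 with lower levels under Dnm3os, against 12.3% of all genes tested called in either direction. Itgam was 2.01-fold higher (adjusted p = 9.46e-12), Csf1r 1.20-fold and Lyz2 1.11-fold, while the level of Adgre1 was 0.81 times and that of Cd68 0.93 times that in the empty vector libraries. Summed markers of B cells, fibroblasts and epithelial cells were at most 0.0752 CPM in any library, those of endothelial cells 1.65 to 2.26 CPM and those of T cells 5.44 to 7.19 CPM. Of 5 endothelial markers 2 were tested, and edgeR called Kdr 2.65-fold higher (8 to 22 counts in a library, adjusted p = 0.0281) and Vwf lower, at 0.51 times the empty vector level (22 to 64 counts, adjusted p = 0.0186); DESeq2 called neither, and limma-voom 1 higher and 0 lower. The T cell sum was nearly all the kinase Lck. Cd3e and Cd3g had 0 counts in all 4 libraries, and Cd3d, Cd4 and Cd8a had 0 to 6 counts in a library. The part of these markers in the results below was not tested.

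**Figure D1:**
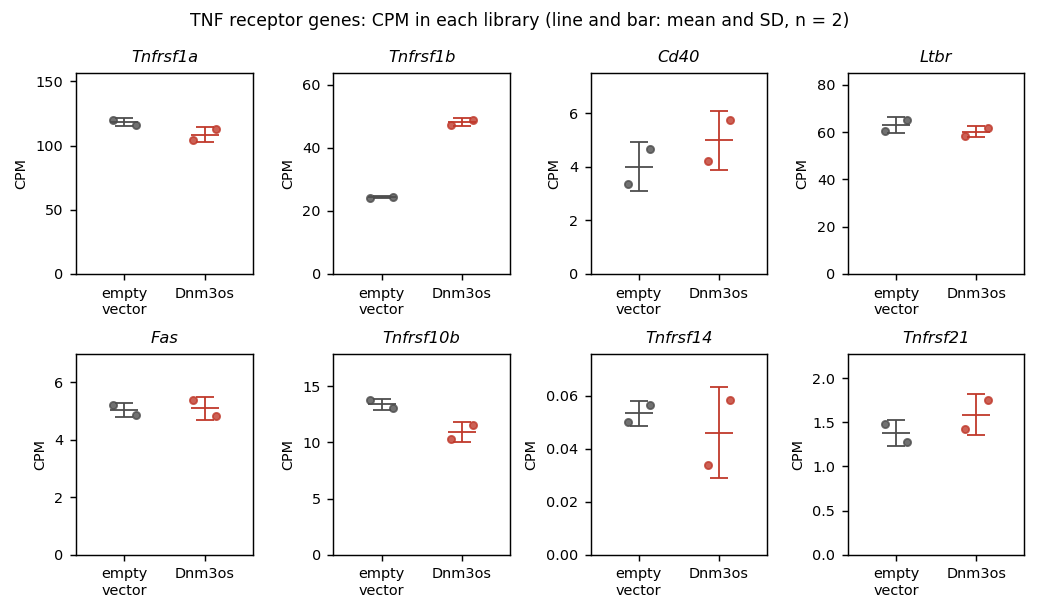
CPM of the 8 receptor genes in each library, 1 panel per gene with its own axis from 0, grey for empty vector and red for Dnm3os; points are libraries, the line and bar are the mean and SD (n = 2). Tnfrsf1b sits near 24 CPM in both empty vector libraries and above 47 CPM in both Dnm3os libraries, while the groups overlap for Cd40, Ltbr, Fas, Tnfrsf14 and Tnfrsf21.

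Tnfrsf1b, the gene of TNFR2, had 959 and 867 counts with the empty vector, against 1390 and 1679 with Dnm3os, each pair given as library 1 and then library 2, here and below. Scaled to library size these were 24.0 and 24.5 CPM in the empty vector group and 47.2 and 49.0 CPM in the Dnm3os group. Both Dnm3os libraries thus lay far above both empty vector libraries, and the gap was many times the difference within either group. The mean rose from 24.3 ± 0.347 to 48.1 ± 1.23 CPM (SD, n = 2 per group), a log2 fold change of 0.99 ± 0.06 (SE) or 1.98-fold, with a 95% interval from 1.83 to 2.15 (adjusted p = 1.14e-11 by edgeR). Among all genes tested, 1.61% had a larger log2 fold change. Among the 1616 genes called in either direction, 14.2% changed by more. The log2 fold change stayed between 0.96 and 1.01 in the 12 alternative fits. In RNA from whole cultures, more cells with the transcript and more transcript per cell cannot be told apart.

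Tnfrsf1a, the gene of the death domain receptor TNFR1, had 4800 and 4096 counts in the empty vector libraries and 3067 and 3868 in the Dnm3os libraries. That is 120.3 and 116 CPM against 104 and 113 CPM. Both Dnm3os libraries were lower than both empty vector libraries, but Dnm3os library 2 came within a few CPM of empty vector library 2. The gene fell by 0.12 ± 0.04 on the log2 scale (SE), from 118 ± 3.14 to 108 ± 6.08 CPM (± SD, n = 2 per group; edgeR adjusted p = 0.0445). This was a small difference, and 90.3% of called genes changed by more. The call was lost without Dnm3os library 1 (-0.07, adjusted p = 0.464 by edgeR), when empty vector library 1 was left out (-0.10, adjusted p = 0.130), by DESeq2 (adjusted p = 0.240), by limma-voom (adjusted p = 0.0992) and with isoforms summed (adjusted p = 0.120 by edgeR), with alternatives from 0.00612 to 0.464.

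The ratio of the TNF receptor transcripts was also taken within each library. The CPM of Tnfrsf1b divided by that of Tnfrsf1a was 0.200 and 0.212 in the empty vector libraries and 0.453 and 0.434 in the Dnm3os libraries. Per kilobase of transcript, with spliced lengths of 3818 bases for Tnfrsf1b and 2156 for Tnfrsf1a from GENCODE, the ratio was 0.116 ± 0.00474 in empty vector and 0.251 ± 0.00764 in Dnm3os cells (SD, n = 2 per group). Tnfrsf1a therefore remained the more abundant transcript per length in all 4 libraries. With 2 libraries against 2 an exact two-sided permutation test cannot go below p = 0.333, so the ratio is given without a test.

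**Figure D2:**
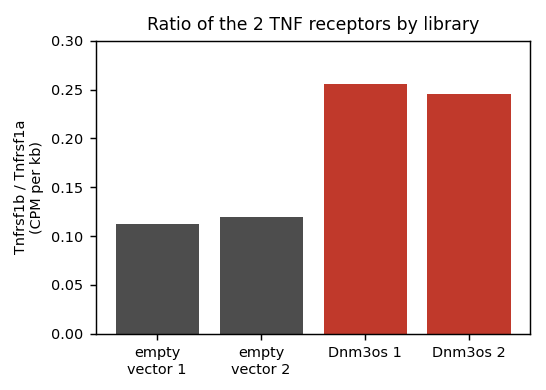
Tnfrsf1b level divided by Tnfrsf1a level, both in CPM per kilobase of transcript, 1 bar per library, grey for empty vector and red for Dnm3os. The bars are 0.113 and 0.120 in the empty vector libraries and 0.256 and 0.245 in the Dnm3os libraries.

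Ltbr and Tnfrsf14 encode receptors that share the ligand LIGHT, the product of Tnfsf14; the lymphotoxin beta receptor encoded by Ltbr also binds the lymphotoxin heterotrimer made from Lta and Ltb. Ltbr had 2410 and 2307 counts with the empty vector, against 1721 and 2119 with Dnm3os, or 60.4 and 65.3 CPM against 58.5 and 61.8 CPM. The groups overlapped, and the log2 fold change was -0.06 with a 95% interval from -0.16 to 0.04 (adjusted p = 0.498 by edgeR). That interval leaves room for a fall to 0.895-fold or a rise to 1.02-fold. Tnfrsf14, the herpesvirus entry mediator HVEM, had 2 and 2 counts with the empty vector, against 1 and 2 with Dnm3os. Whether it differed was not detectable at this depth, and its transcript was near the limit of detection in every library.

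Cd40, the receptor through which T cells activate macrophages, had 134 and 165 counts with the empty vector, against 124 and 198 with Dnm3os. In CPM these were 3.36 and 4.67 against 4.21 and 5.77, so the groups overlapped and the libraries of each group were far apart. The log2 fold change was 0.33 ± 0.18 (SE), with a 95% interval from -0.05 to 0.72 (adjusted p = 0.301 by edgeR). Cd40 was called higher only without empty vector library 2 (0.58, adjusted p = 0.0104 by edgeR), over alternatives up to 0.901, and its estimate was 0.10 without empty vector library 1 and 0.08 without Dnm3os library 2. The gene has 5 RefSeq transcripts, whose counts were nearly the same within each library, from 123 to 134 in empty vector library 1 and from 182 to 198 in Dnm3os library 2, so the counts of isoforms overlap and do not separate full-length from truncated forms.

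Fas, Tnfrsf10b and Tnfrsf21 encode death domain receptors. Tnfrsf10b, a mouse receptor of the death ligand TRAIL, had 548 and 461 counts with the empty vector, against 302 and 397 with Dnm3os. In CPM these were 13.7 and 13.0 against 10.3 and 11.6. The groups did not overlap, and the lower values were those of the Dnm3os libraries. It fell by 0.29 ± 0.09 on the log2 scale (SE), from 13.4 ± 0.491 to 10.9 ± 0.931 CPM (± SD, n = 2 per group; edgeR adjusted p = 0.0288), which is 1.22-fold lower. Its direction held in all 12 alternatives, from -0.39 to -0.21, but its call did not. The adjusted p by edgeR was 0.105 with empty vector library 1 left out, 0.271 and 0.0545 with Dnm3os library 1 or 2 left out, and the call was also lost by DESeq2 (0.276), limma-voom (0.0546) and with isoforms summed (0.0641), with alternatives from 0.0107 to 0.276.

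Fas, whose ligand is made by cytotoxic lymphocytes, had 208 and 172 counts with the empty vector, against 158 and 165 with Dnm3os, or 5.22 and 4.87 CPM against 5.37 and 4.81 CPM. The values of the groups were interleaved, and the fold change was 1.01 with a 95% interval from 0.842 to 1.20 (adjusted p = 0.981 by edgeR). A shorter Fas transcript had 29 and 31 counts with the empty vector, against 23 and 30 with Dnm3os. Tnfrsf21, the death receptor DR6, was the lowest of the tested genes, with 59 and 45 counts with the empty vector, against 42 and 60 with Dnm3os, or 1.48 and 1.27 CPM against 1.43 and 1.75 CPM. Its groups overlapped, and its log2 fold change of 0.21 had a wide 95% interval, from -0.27 to 0.68 (adjusted p = 0.668 by edgeR).

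Groups that did not overlap were common in these data, at 51.2% of all genes tested (26.2% higher and 25.0% lower), against 3 of the 7 receptor genes (1 higher and 2 lower).

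**Figure D3:**
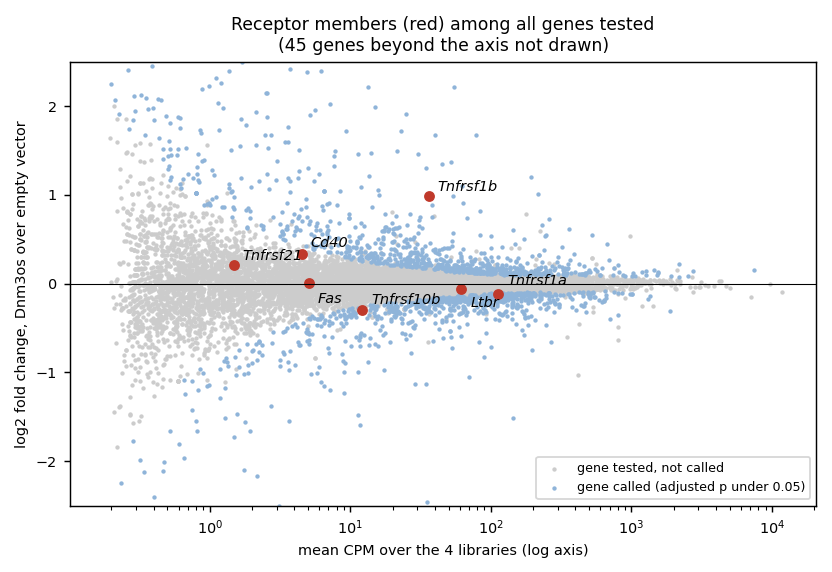
Log2 fold change (Dnm3os over empty vector) against mean CPM on a log axis for all genes tested, grey where not called and blue where called, with the 7 tested receptor genes in red; 45 genes beyond 2.5 on the vertical axis are not drawn. Tnfrsf1b stands at 0.99, and the other 6 lie between -0.29 and 0.33.

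By level per kilobase of transcript, the order in the empty vector libraries was Tnfrsf1a (54.8 ± 1.46 CPM per kilobase, SD, n = 2), Ltbr (29.8 ± 1.63), Tnfrsf1b (6.36 ± 0.0908), Tnfrsf10b (4.21 ± 0.154), Fas (3.40 ± 0.166), Cd40 (1.34 ± 0.310), Tnfrsf21 (0.379 ± 0.0401) and Tnfrsf14 (0.0524 ± 0.00448). No neighbours in that order overlapped between libraries. In the Dnm3os libraries Tnfrsf1b was still the third, at 12.6 ± 0.322 CPM per kilobase. Fas (3.44 ± 0.266) and Tnfrsf10b (3.43 ± 0.293) could not be ordered there, since their libraries overlapped. The lengths are those of GENCODE transcripts matched to the RefSeq accessions, so levels between genes carry any error in these models.

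The other 20 receptors of the family had mostly few or no counts. Of them 7 passed the filter on low counts, and 4 (Tnfrsf11b, Tnfrsf18, Tnfrsf19 and Edar) had 0 counts in all 4 libraries, which allows up to 0.102 CPM in the shallowest one. Of the 7 tested, 1 rose, 0 fell and 6 did not pass, with a median log2 fold change of -0.05. Over all genes tested the shares were 6.51% higher and 5.75% lower. Among the other receptors with lower levels under Dnm3os, 0 had an unadjusted p under 0.05 in edgeR, and limma-voom and DESeq2 called 0.

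The one that rose was Relt, a receptor of lymphoid tissues, with 8.52 and 7.78 CPM with the empty vector, against 9.95 and 10.4 CPM with Dnm3os (0.32 ± 0.09 log2, SE; adjusted p = 0.0296 by edgeR). Both Dnm3os libraries were higher, but the adjusted p by edgeR was 0.173 with empty vector library 2 left out and 0.0970 and 0.217 with Dnm3os library 1 or 2 left out, and the call was also lost by DESeq2 (0.326), limma-voom (0.0519) and with isoforms summed (0.0602), with alternatives from 0.0170 to 0.326. Tnfrsf11a, the gene of the osteoclast receptor RANK, had 127.7 and 114 CPM with the empty vector, against 112 and 121 CPM with Dnm3os (-0.05 ± 0.06 log2, SE; adjusted p = 0.673 by edgeR). It was called lower without empty vector library 2 (-0.13, adjusted p = 0.0204 by edgeR) and its estimate turned to 0.03 without empty vector library 1. Tnfrsf12a, the TWEAK receptor Fn14, stood at 12.7 ± 0.885 and 11.2 ± 1.50 CPM (± SD, n = 2 per group; edgeR adjusted p = 0.272). The decoy receptor genes Tnfrsf22 (-0.08 ± 0.06 log2, SE) and Tnfrsf23 (-0.07 ± 0.06), and the related Tnfrsf26 (0.15 ± 0.12), are similar neighbours whose reads may be shared, and like the neurotrophin receptor gene Ngfr (0.17 ± 0.25) they did not pass.

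**Figure D4:**
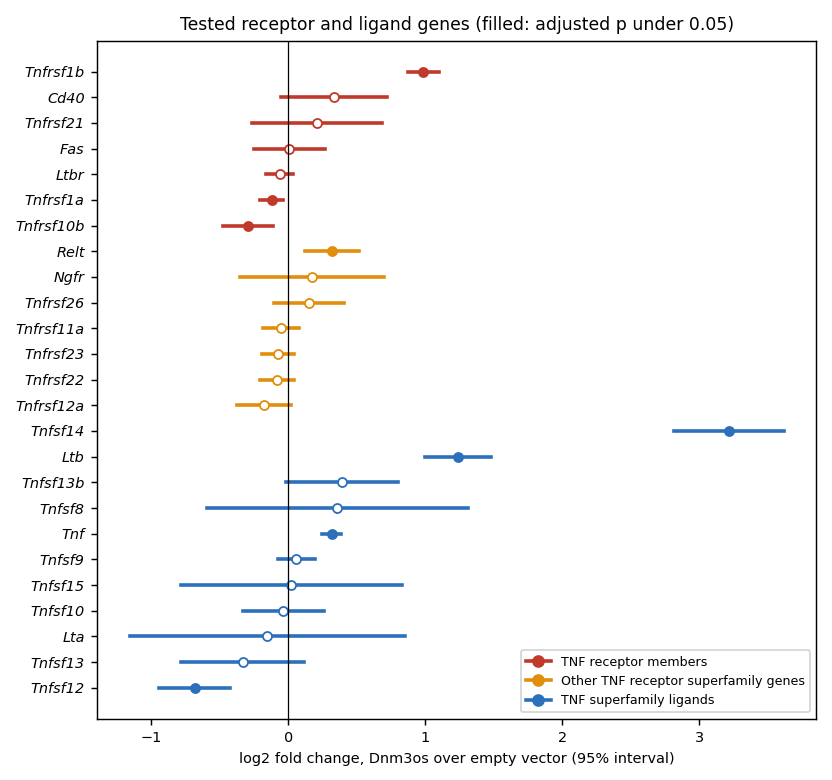
Log2 fold change with its 95% interval for each tested receptor and ligand gene, red for the 7 receptor genes described here, orange for 7 other receptors and blue for 11 ligands; filled points have an adjusted p under 0.05. Tnfrsf1b (0.99) is the largest change among the receptors drawn, and Tnfsf14 (3.22) and Ltb (1.24) are the largest among the ligands.

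Among the ligand genes, Tnfsf14 and Ltb showed the largest rises. Of 18 ligand genes 11 were tested: 3 rose, 1 fell and 7 did not pass, with a median log2 fold change of 0.06. Among all genes tested, 6.51% were higher and 5.75% were lower. The counts of 3 higher and 1 lower were the same in all 12 alternatives. Tnfsf14, the gene of LIGHT, had 22 and 25 counts with the empty vector, against 161 and 212 with Dnm3os, or 0.552 and 0.707 CPM against 5.47 and 6.18 CPM. It was 9.29-fold higher (3.22 ± 0.19 log2, SE; adjusted p = 2.59e-11 by edgeR), and 15 of the genes tested had a larger log2 fold change. Of its receptors, Ltbr was not called and Tnfrsf14 was near 0, as given above.

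Ltb, the membrane-bound lymphotoxin subunit, had 3.49 and 3.68 CPM with the empty vector, against 8.53 and 8.37 CPM with Dnm3os, 2.36-fold higher (1.24 ± 0.12 log2, SE; adjusted p = 5.11e-08 by edgeR). Its partner Lta, which also binds the TNF receptors as a soluble trimer, had 12 and 13 counts with the empty vector, against 11 and 8 with Dnm3os (adjusted p = 0.907 by edgeR), with a 95% interval of the log2 fold change from -1.16 to 0.85. Tnf, the ligand of both TNF receptors, had 173 and 175 CPM with the empty vector, against 221 and 212 CPM with Dnm3os, a rise of 0.32 ± 0.03 log2 (SE; edgeR adjusted p = 2.06e-07). Tnf and Tnfrsf1b were thus both higher in the 2 Dnm3os libraries.

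Tnfsf12, the gene of TWEAK and ligand of Fn14, was the ligand that fell, from 6.14 and 6.48 CPM in the empty vector to 4.21 and 3.67 CPM in the Dnm3os libraries (-0.68 ± 0.12 log2, SE; adjusted p = 0.000496 by edgeR). Tnfsf10, which encodes the TRAIL ligand of Tnfrsf10b, had 3.81 and 3.48 CPM against 3.60 and 3.53 CPM, with interleaved groups (adjusted p = 0.930 by edgeR). Cd40lg had 0 counts in all 4 libraries and Fasl had 1 count in Dnm3os library 2 alone, so the transcripts of the Cd40 and Fas ligands were not seen or barely seen in these cells.

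**Figure D5:**
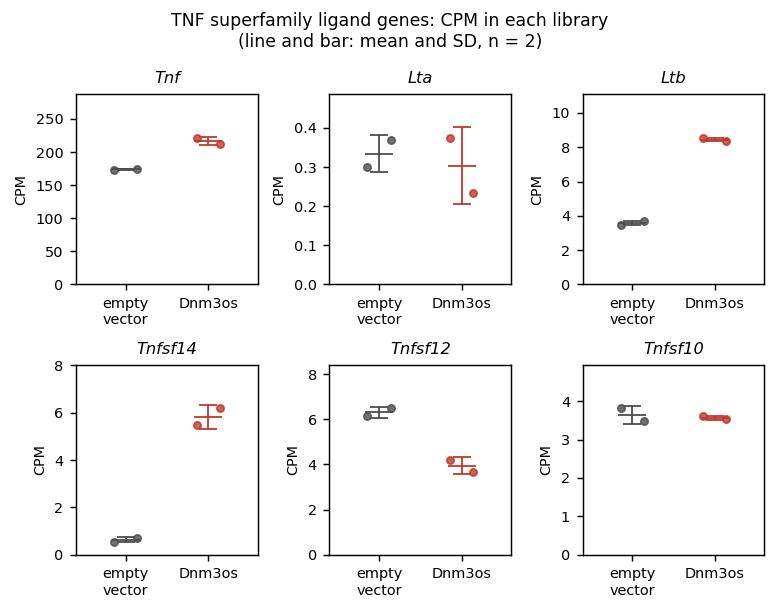
CPM of 6 ligand genes in each library, 1 panel per gene with its own axis from 0, grey for empty vector and red for Dnm3os; points are libraries, the line and bar are the mean and SD (n = 2). Tnf, Ltb and Tnfsf14 are higher and Tnfsf12 is lower in both Dnm3os libraries, while Lta and Tnfsf10 overlap between groups.

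Downstream of the receptors most genes did not pass the test, as was so among all genes tested. The shares to set beside each list below are those over all 13172 genes tested, 6.51% higher and 5.75% lower. Of 17 genes listed as TRAF adaptors and ubiquitin enzymes, 2 rose, 0 fell and 15 did not pass (median log2 fold change 0.05). Among those with lower levels under Dnm3os, 1 had an unadjusted p under 0.05 in edgeR, and limma-voom and DESeq2 called 0. Traf1, an adaptor that binds TNFR2 together with Traf2, had 8.02 and 10.4 CPM with the empty vector, against 14.6 and 14.8 CPM with Dnm3os (0.68 ± 0.10 log2, SE; adjusted p = 0.000145 by edgeR) and was called in all 12 alternatives. Traf2 itself had 32.2 and 34.4 CPM against 30.3 and 31.5 CPM (adjusted p = 0.298 by edgeR). Traf2 was named after its values were seen. The TRAF-interacting ubiquitin ligase gene Traip rose by 0.20 ± 0.06 log2 (SE; adjusted p = 0.0334 by edgeR), a call lost in each fit on 3 libraries, with isoforms summed and by DESeq2, with alternatives from 0.0247 to 0.277.

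Of 15 death domain adaptors, caspases and necroptosis genes, 1 rose, 1 fell and 13 did not pass (median 0.05). Mlkl, the pore-forming effector of necroptosis, had 69.2 and 73.7 CPM with the empty vector, against 62.2 and 62.5 CPM with Dnm3os (-0.20 ± 0.04 log2, SE; adjusted p = 0.00321 by edgeR). The call did not hold with library 2 of either group left out (edgeR adjusted p = 0.0521 for the empty vector one and 0.0564 for the Dnm3os one), with alternatives from 0.000102 to 0.0564. Casp8, the initiator caspase of death receptors, rose by 0.12 ± 0.04 log2 (SE; adjusted p = 0.0490 by edgeR), but 10 of its 12 alternatives did not call it, among them each fit on 3 libraries and the fit with a replicate block (adjusted p = 0.0669), with alternatives from 0.0325 to 0.354.

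Of 16 kinases and NF-kB factors of the receptor arms, 1 rose, 0 fell and 15 did not pass (median 0.01). Among those with lower levels under Dnm3os, 0 had an unadjusted p under 0.05 in edgeR, and limma-voom and DESeq2 called 0. The stress kinase gene Mapk14 rose from 100.4 ± 0.237 to 109 ± 1.50 CPM (± SD, n = 2 per group; edgeR adjusted p = 0.0255), a call lost in each fit on 3 libraries and by DESeq2, with alternatives from 0.0172 to 0.235. Of 7 genes that act in receptor shedding, 6 were tested: 1 rose, 0 fell and 5 did not pass (median 0.07). Among those with lower levels under Dnm3os, 0 had an unadjusted p under 0.05 in edgeR, and limma-voom and DESeq2 called 0. Rhbdf2, which brings the sheddase Adam17 to the surface, rose from 104 ± 1.13 to 112 ± 3.87 CPM (± SD, n = 2 per group; edgeR adjusted p = 0.0370), a call lost without either Dnm3os library, without empty vector library 2, by DESeq2, by limma-voom and with isoforms summed, with alternatives from 0.0218 to 0.366. Adam17, the protease that cleaves both TNF and its receptors, was at 237 and 255 CPM with the empty vector, against 245 and 242 CPM with Dnm3os (adjusted p = 0.869 by edgeR). Adam17 was named after its values were seen.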

How the data were processed

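The data were 4 poly(A) RNA libraries of RAW 264.7 cells, prepared with TruSeq reagents and read on a HiSeq 2500 instrument, per the labels' protocols. The submitters' processing notes name TopHat, Bowtie2, DESeq2 and the build mm9, without versions or roles. Which program counted reads, on which annotation and with which strand setting, is not given in the sources used here. Per the file headers, the authors deposited raw read counts for 35786 RefSeq transcripts, in which a read can count for several isoforms. The normalized signal deposited beside them equals the count times 1 constant per library and was not used.

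Transcripts were named from RefSeq (35499) and GENCODE (178) tables; 109 unnamed ones stayed under their accession, except 45S ribosomal RNA, which was left out. The only coordinates given are those of the 2 RefSeq promoters, on GRCm38.p6, which is not the build named in the notes. The test was edgeR 4.0.16 under R 4.3.3 (robust glmQLFit, then glmQLFTest), after filterByExpr and TMM scaling. The script was tested on simulated data. SEs were derived from the log2 fold change and its F statistic. CPM are on TMM-scaled library sizes. A floor of 3 counts covers counting error only.

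The members and gene lists were chosen with earlier results of these data known. The named genes were the 8 receptors, every tested gene among the other receptors, 7 ligands of the receptors, Dnm3os, and up to 6 called genes with the smallest adjusted p in each other list. The alternatives, 12 in all, were DESeq2 size factors or upper-quartile factors, no filter or 1 CPM in 2 libraries, DESeq2 1.42.0, limma-voom (limma 3.58.1), a replicate block, isoforms summed, and each library left out in turn, where the lone library of a group is assumed to vary like the others.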

Additional observations from a re-analysis of the deposited data

How the results depend on the processing

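The 3 ligands higher and 1 lower kept these counts in all 12 alternatives, and the calls of Tnfrsf1b, Tnf, Ltb, Tnfsf14, Tnfsf12 and Traf1 held in each. Over 27 named genes and 323 gene-by-setting values, 270 kept direction and side of the threshold, 46 lost a call, 2 gained one and 5 turned direction. Those 5 were genes without a call: Fas was -0.04 without empty vector library 2 and -0.07 without Dnm3os library 1 (-0.07 to 0.09 over the 4 fits that leave a library out), Tnfrsf11a 0.03 and Tnfsf10 0.03 without empty vector library 1 (-0.13 to 0.03 and -0.10 to 0.03), and Lta 0.17 without Dnm3os library 2 (-0.51 to 0.17).

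Over all genes, DESeq2 called 404 higher and 362 lower, limma-voom 720 and 614, and edgeR with isoforms summed 700 and 630. The edgeR test reported above called 858 higher and 758 lower. With DESeq2 the counts were 0 receptors lower among the 8, 0 other receptors higher, 1 TRAF gene higher, 0 death genes higher, 0 kinase and NF-kB genes higher and 0 shedding genes higher. With limma-voom 0 of the 8 receptors were lower, 0 other receptors, 0 death genes and 0 shedding genes were higher. With isoforms summed 0 of the 8 receptors were lower, 0 other receptors and 0 shedding genes were higher, 1 TRAF gene was higher and 2 death genes were higher. DESeq2 size factors, upper-quartile factors and the filter at 1 CPM each gave 0 death genes higher. The cause was not tested.

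With each library left out in turn, all genes ranged from 465 to 808 higher and from 396 to 786 lower, the 8 receptors from 1 to 2 higher and from 0 to 2 lower, other receptors from 0 to 1 higher and from 0 to 1 lower, TRAF genes from 1 to 2 higher, death genes from 0 to 0 higher and from 0 to 1 lower, kinase and NF-kB genes from 0 to 0 higher, and shedding genes from 0 to 1 higher; these fits have fewer samples.

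The titles number the libraries 1 and 2 in both groups, but nothing says that a number marks a shared culture. Deviations of same-numbered libraries from their group means had a correlation of -0.0634 over 13172 genes. With a replicate block 868 genes were higher and 782 lower, against 858 and 758, 0 death genes were higher, since Casp8 was not called, and no other named gene or list count lost its call. Depth limits Tnfrsf14, which had at most 2 counts in a library.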
